A study of Mus musculus with 15 samples.

Results

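The genes described here are 33 genes of fat cells and of fat synthesis, listed by symbol and found among the 48795 genes counted in RNA from mouse ear. They comprise 19 adipocyte markers, 7 enzymes of fatty acid synthesis, and 7 other genes, of which 3 are regulators and 4 make or remodel triglyceride. A filter on low counts left 14991 genes for testing, and 32 of the 33 passed it. Adrb3, the fat-cell beta-adrenergic receptor, did not.

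The libraries came from whole ear tissue of female mice aged 5 weeks in a model of skin inflammation raised with phorbol 12-myristate 13-acetate (PMA), an irritant that activates protein kinase C. They fell into PMA_1002 (n = 6), PMA_ethanol (n = 4) and Control (n = 5). PMA_1002 ears were given PMA and a synthetic innate defense regulator peptide, whose action against inflammation was the subject of the study. Ethanol is named in the PMA_ethanol label but not in that of PMA_1002, so effects of peptide and vehicle cannot be told apart. The sources used here give no dose, no time and no vehicle for Control ears. Effects of PMA and of ethanol thus cannot be told apart either, and "with PMA" below names the comparison of PMA_ethanol with Control. Nothing in the labels ties each library to an animal of its own, so p-values measure only the spread between libraries, which may be technical. Reads in genes ranged from 2656680 to 28585995 per library, with the fewest in PMA_ethanol library 3. Levels are counts-per-million (CPM) values of the scaled library size, and every adjusted p is from edgeR's two-sided quasi-likelihood test with Benjamini-Hochberg adjustment over all genes tested, where an adjusted p under 0.05 is called. In whole tissue, fewer cells of a type and less RNA per cell cannot be told apart.

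White fat cells store triglyceride in a droplet coated by perilipin 1, take up fatty acids freed from blood lipoproteins by lipoprotein lipase, and release them again through adipose triglyceride lipase and hormone-sensitive lipase. The nuclear receptor PPAR gamma turns on most of the genes that give a fat cell its identity. Fatty acids are also built anew in the cytosol from citrate by ATP citrate lyase, acetyl-CoA carboxylase and fatty acid synthase, and are then elongated and desaturated. Skin has a layer of dermal fat cells, and its sebaceous glands make lipid with many of the same enzymes, so transcripts of these genes in ear need not come from fat cells.

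Promoters of 5 members are shown because they mark the extremes of the changes below: Pck1, Thrsp and Pnpla3 had the largest decreases with PMA, while Adipoq and Fasn were not called. Each run covers 250 bases before to 50 bases after a RefSeq start site on GRCm38.p6, read 5′ to 3′ on the gene's strand, with capitals marking matches to any of 5 motifs. The windows are chr2:173152823-173153122 on the plus strand, chr7:97417501-97417800 on the minus strand, chr15:84167566-84167865 on the plus strand, chr16:23146286-23146585 on the plus strand and chr11:120824498-120824797 on the minus strand.
Pck1: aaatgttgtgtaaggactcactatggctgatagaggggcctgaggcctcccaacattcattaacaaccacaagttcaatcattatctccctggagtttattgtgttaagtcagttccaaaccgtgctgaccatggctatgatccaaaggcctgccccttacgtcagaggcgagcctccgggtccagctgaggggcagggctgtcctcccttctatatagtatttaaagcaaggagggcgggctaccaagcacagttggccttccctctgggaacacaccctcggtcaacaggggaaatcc
Thrsp: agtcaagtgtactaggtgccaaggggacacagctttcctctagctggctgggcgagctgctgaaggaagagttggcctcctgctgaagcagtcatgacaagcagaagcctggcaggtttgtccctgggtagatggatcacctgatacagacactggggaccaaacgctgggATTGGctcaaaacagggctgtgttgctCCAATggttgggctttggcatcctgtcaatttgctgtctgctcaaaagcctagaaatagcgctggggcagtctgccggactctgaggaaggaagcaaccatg
Pnpla3: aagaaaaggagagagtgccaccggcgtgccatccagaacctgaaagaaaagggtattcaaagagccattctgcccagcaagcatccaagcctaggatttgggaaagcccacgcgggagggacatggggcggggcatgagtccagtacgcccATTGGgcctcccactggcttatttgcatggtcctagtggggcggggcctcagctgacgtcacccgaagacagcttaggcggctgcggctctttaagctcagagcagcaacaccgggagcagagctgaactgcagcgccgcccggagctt
Adipoq: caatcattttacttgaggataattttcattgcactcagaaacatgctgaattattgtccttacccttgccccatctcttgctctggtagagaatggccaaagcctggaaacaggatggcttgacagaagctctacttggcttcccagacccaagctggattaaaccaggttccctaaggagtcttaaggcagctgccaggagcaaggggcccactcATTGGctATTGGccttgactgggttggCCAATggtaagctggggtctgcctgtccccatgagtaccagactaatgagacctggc
Fasn: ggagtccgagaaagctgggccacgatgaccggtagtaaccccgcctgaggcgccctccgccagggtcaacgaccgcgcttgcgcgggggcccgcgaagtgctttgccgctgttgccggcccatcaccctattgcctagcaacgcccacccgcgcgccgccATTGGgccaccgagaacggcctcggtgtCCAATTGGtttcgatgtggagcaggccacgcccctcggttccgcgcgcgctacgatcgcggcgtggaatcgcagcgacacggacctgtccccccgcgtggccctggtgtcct

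All capitals in these windows are CCAAT boxes, read as CCAAT or, on the other strand, ATTGG. Pck1 had no match in its window, Pnpla3 had 1, Thrsp 2, and Adipoq and Fasn 3 each, and in Fasn the box 62 bases before the start overlaps the box 59 bases before it. RefSeq windows were at hand for 24 of the 33 genes, and 12 of the 24 held a CCAAT box in at least 1 of their windows, against 37.4% of all 32851 windows. The other motifs, searched on both strands, were TGANTCA of AP-1 (2 of the 24 genes, against 7.81% of all windows), the E-box CACGTG (2 of the 24, against 7.15%), TTGCNNAA of the C/EBP factors (4 of the 24, against 10.8%) and the direct repeat of AGGNCA with 1 base between the copies, which PPAR gamma binds with its partner (0 of the 24, against 0.381%). A gene with several windows counts once if any of them matches, which raises its share against that of single windows. A match is a description of letters only.

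Markers that define fat cells were measured in every library. Adipoq, which encodes the fat-cell hormone adiponectin, reached 16.4 ± 4.18, 15 ± 5.05 and 21.1 ± 7.71 CPM per kilobase of exon (RPKM, mean ± SD) in PMA_1002, PMA_ethanol and Control ears. The summed level of 4 defining markers, Adipoq, Plin1, Cidec and Lep, lay between 58.7 and 99.8 CPM in PMA_1002, between 40.7 and 80.4 in PMA_ethanol and between 55.3 and 129 in Control libraries, and none of the 4 was at 0 in any library. Per kilobase, Scd1, the desaturase that makes oleate from stearate, had the highest level of all members, with 1380 ± 150, 1340 ± 280 and 1785 ± 105 RPKM in the same order of groups. Elovl6, the elongase that turns palmitate into stearate, followed with 136 ± 17.8, 110 ± 29.1 and 137 ± 18.3 RPKM. Per kilobase, both stood above all 4 secreted fat-cell products in every group. Pck1 and Thrsp were among the lower members, at 4.73 ± 1.27 and 3.75 ± 1.24 RPKM in Control ears.

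Replicates differed more in the adipocyte markers than in the synthesis enzymes. The SD of log2 CPM within groups had a median of 0.39 over the 18 tested adipocyte markers (range 0.18 to 1.21), 0.18 over the 7 synthesis enzymes (range 0.11 to 0.35) and 0.21 over all genes tested. Adipoq had a larger SD than 88.5% of all genes. The same libraries recurred at the extremes: Control library 3 was the lowest of its group for 13 of the 19 markers but for 1 of the 7 synthesis enzymes, and PMA_ethanol library 2 was the lowest for 13 of the 19 and 1 of the 7. PMA_ethanol library 4 was the highest of its group for 12 of the 19 markers and 7 of the 7 enzymes, and PMA_ethanol library 3, the shallowest, was the lowest for 6 of the 7 enzymes.

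**Figure D1:**
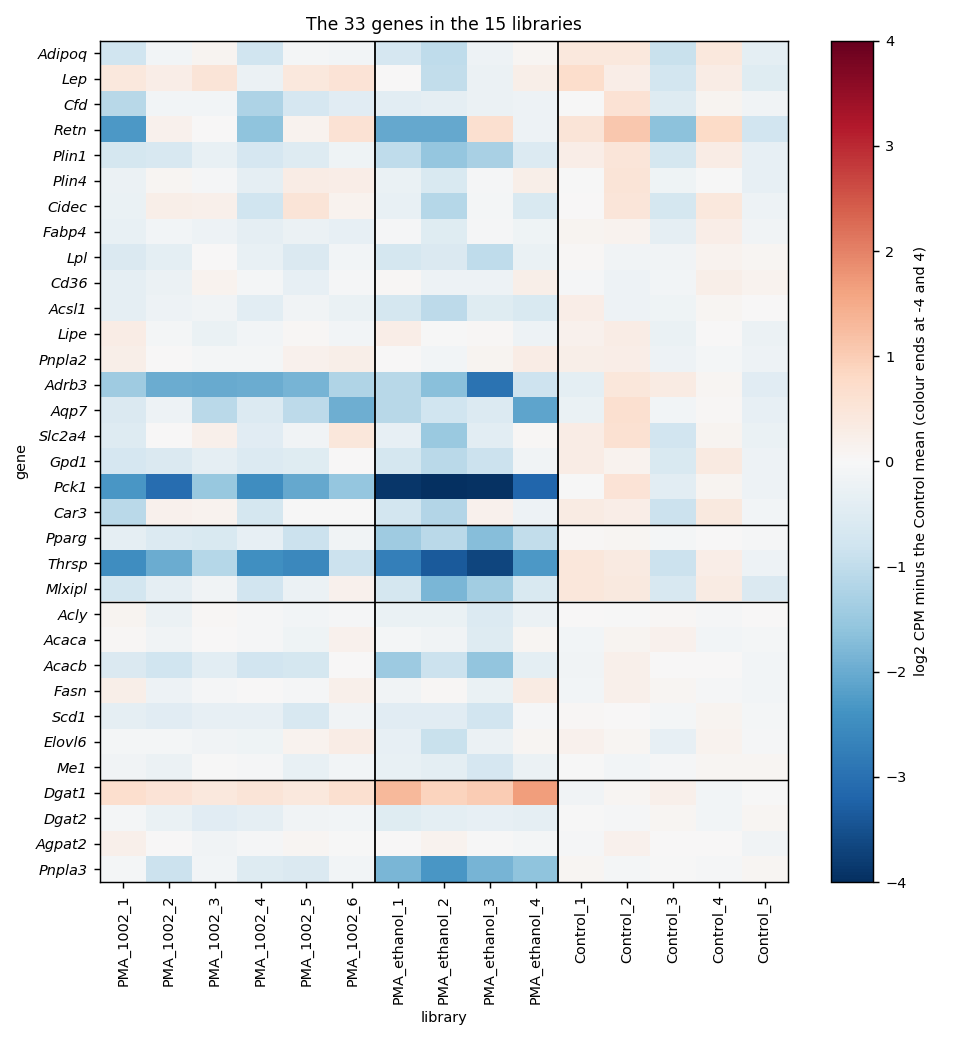
Level of each of the 33 genes in each library (columns) as log2 CPM minus the Control mean of that gene, with PMA_1002 libraries on the left, PMA_ethanol in the middle and Control on the right, and horizontal lines between adipocyte markers, regulators, synthesis enzymes and triglyceride genes. Pck1, Thrsp and Pnpla3 are darkest blue in the PMA_ethanol libraries, Dgat1 is red there, and Control library 3 is pale blue for most adipocyte markers.

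PMA_ethanol against Control asked how these genes differed with the irritant and ethanol together. Pck1, an enzyme of glycerol 3-phosphate synthesis, Thrsp, a lipogenic regulator, and Pnpla3, a droplet protein, fell the most, followed by Aqp7, Pparg, Mlxipl and Plin1, and 1 gene, Dgat1, rose. Of the 32 tested members 15 fell (46.9%), against 35.9% of all genes tested, and 1 rose, against 32.5% of all genes. The median fitted log2 fold change of the 32 was -0.44, against -0.07 over all genes. Among the 18 tested adipocyte markers 6 fell and none rose (33.3%, below the share of all genes that fell), with a median of -0.52. Among the 7 synthesis enzymes 4 fell and none rose, with a median of -0.32. Each count of 0 for a list by edgeR in this and the following paragraphs was also 0 at an unadjusted p under 0.05, by DESeq2 and by limma voom.

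PMA_1002 against PMA_ethanol asked what differed when the peptide was given with the irritant. Acsl1, Pck1, Pparg, Acly, Me1 and Pnpla3 were higher with the peptide and Dgat1 was lower. That is 6 of 32 higher (against 17.0% of all genes) and 1 of 32 lower (against 18.0%), with a median of 0.26, against 0.03 over all genes. The count of 7 was 13 without PMA_ethanol library 4. Of the adipocyte markers 2 of 18 were called, Acsl1 and Pck1, and of the synthesis enzymes 2 of 7, Acly and Me1. Without PMA_ethanol library 4 these counts were 4 and 4. Without Control library 1, PMA_ethanol library 2 or 3, or PMA_1002 library 1, 3, 4 or 6, the enzyme count was 1.

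PMA_1002 against Control asked what remained apart from Control ears. In this comparison 14 of 32 members were lower (43.8%, against 26.7% of all genes) and 1, Dgat1, was higher (against 28.4%), with a median of -0.25, against -0.03 over all genes. The lower genes were 8 of the 18 adipocyte markers (Cfd, Plin1, Fabp4, Lpl, Acsl1, Aqp7, Gpd1 and Pck1), 2 of the 7 enzymes (Acacb and Scd1), and Pparg, Thrsp, Dgat2 and Pnpla3. Of these 15 calls, those of Pck1, Pparg, Thrsp, Scd1 and Dgat1 held under every alternative run. The other 10 were lost under at least 1, and the count of 15 was 9, 8 and 8 without Control library 1, 2 or 4, and 7, 9, 8 and 7 without PMA_1002 library 1, 2, 4 or 5. The marker count of 8 was 3 without Control library 1, 2 or 4, and 1, 4, 3 and 2 without PMA_1002 library 1, 2, 4 or 5. Aqp7 did not pass the filter without PMA_1002 library 1, 2 or 5, and counts there as not called. The enzyme count of 2 was 1 without Control library 2, 3 or 4 or PMA_1002 library 1, 2, 4 or 5. The libraries of each group enter a pair of these comparisons, so the comparisons are not independent of one another.

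**Figure D2:**
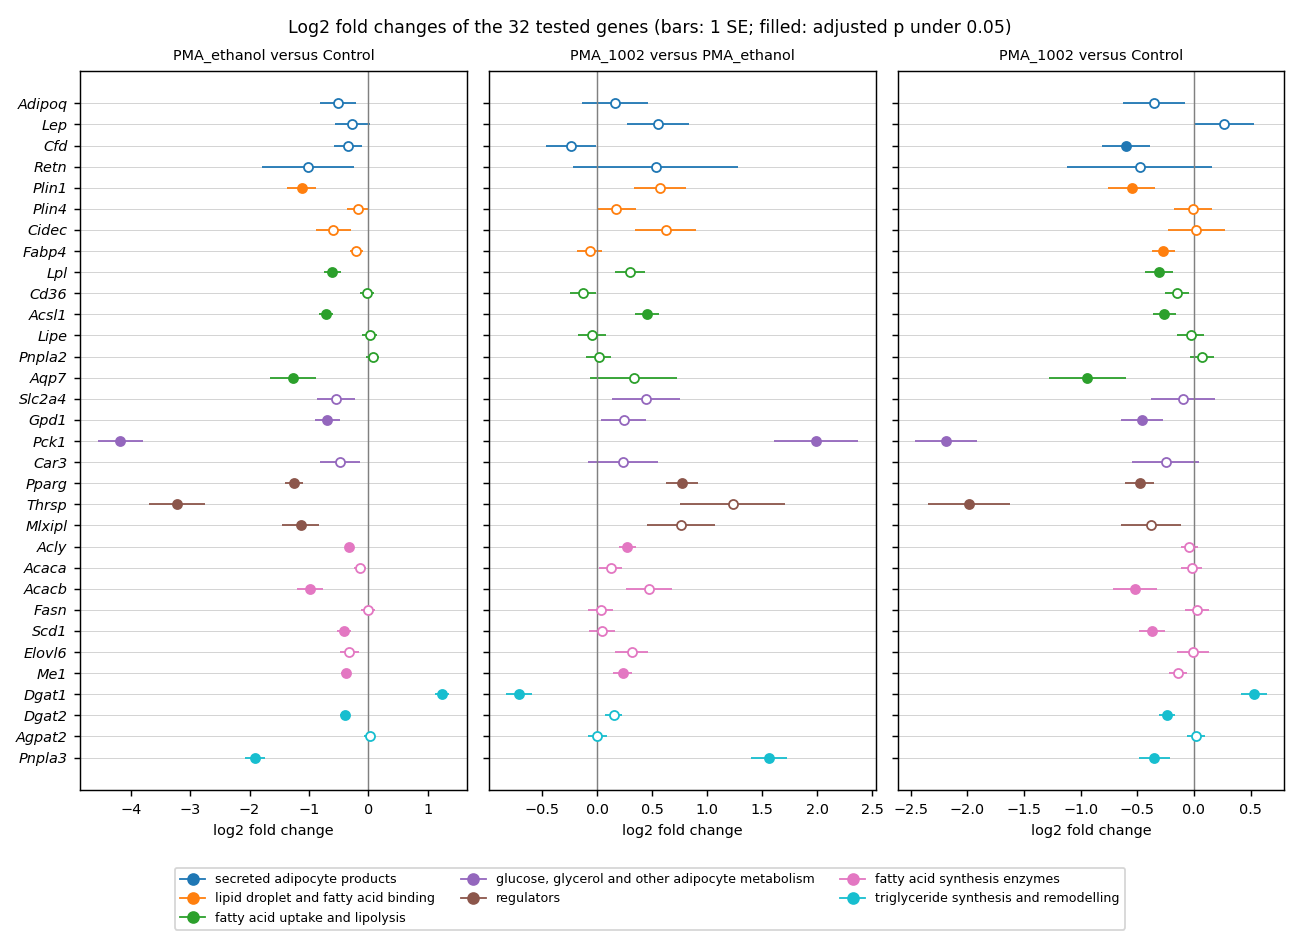
Log2 fold change of each of the 32 tested genes (rows, coloured by role) in PMA_ethanol versus Control (left), PMA_1002 versus PMA_ethanol (middle) and PMA_1002 versus Control (right), with bars of 1 SE on each side and filled points where the edgeR adjusted p was under 0.05. Pck1 (-4.18) and Thrsp (-3.22) lie farthest left in the first panel, and Dgat1 (1.24) is the filled point on the right there.

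Among the secreted products of fat cells none of 4 was called in PMA_ethanol versus Control or in PMA_1002 versus PMA_ethanol. Adipoq (ENSMUSG00000022878, chromosome 16 from 23146536 to 23158028) had 15.5, 25.1 and 29.1 CPM as its lowest, median and highest value in the 6 PMA_1002 libraries, 16.9, 13.4, 23.6 and 29.0 CPM in PMA_ethanol libraries 1 to 4, and 36.6, 36.9, 14.7, 36.7 and 20.7 CPM in Control libraries 1 to 5. The 3 groups overlapped, and Control libraries 3 and 5 lay within the range of the PMA_ethanol libraries. Its log2 fold change was -0.51 (edgeR adjusted p = 0.157, SE 0.31) for PMA_ethanol versus Control and 0.16 (edgeR adjusted p = 0.719) for PMA_1002 versus PMA_ethanol. The first of these was called without Control library 3, under upper-quartile scaling and with the hair follicle level as a covariate.

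Lep, the gene of the satiety hormone leptin, had 10.7, 16.8 and 18.6 CPM as its lowest, median and highest value in the 6 PMA_1002 libraries, 12.7, 6.22, 10.8 and 15 CPM in PMA_ethanol libraries, and 20.5, 15.2, 7.46, 15.4 and 8.85 CPM in Control libraries. The groups overlapped, with log2 fold changes of 0.55 (edgeR adjusted p = 0.145) for PMA_1002 versus PMA_ethanol and 0.27 (edgeR adjusted p = 0.384) for PMA_1002 versus Control. Cfd, which encodes adipsin, a protease of the complement system made by fat cells, was lower in PMA_1002 ears (17.3 ± 5.56 CPM, n = 6) than in Control ears (26.3 ± 7.64 CPM, SD, n = 5), with a log2 fold change of -0.60 (edgeR adjusted p = 0.0248, SE 0.211). Its PMA_ethanol libraries, at 18.9, 19.8, 21.6 and 22.0 CPM, lay within the Control range. Retn, the gene of the hormone resistin, varied most of all members within groups, with an SD of 1.21 on the log2 scale, and had PMA_ethanol values of 1.75, 1.75, 12.4 and 6.87 CPM. No Retn difference was called at that spread, and the 3 groups overlapped. With the hair follicle level as a covariate, Retn was called lower in PMA_ethanol (edgeR adjusted p = 0.000771) and in PMA_1002 ears (edgeR adjusted p = 7.44e-05) than in Control ears.

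Of the genes that coat the lipid droplet or bind fatty acids, Plin1 fell with PMA. Plin1, which encodes the droplet coat perilipin 1, had 18.2, 19.8 and 26.3 CPM as its lowest, median and highest value in the 6 PMA_1002 libraries, 14.5, 9.90, 12.0 and 20.2 CPM in PMA_ethanol libraries, and 35.2, 41.9, 18.1, 36.2 and 23.3 CPM in Control libraries. PMA_ethanol library 4 lay above Control library 3, and the other PMA_ethanol libraries lay below all Control libraries. The log2 fold change was -1.12 (edgeR adjusted p = 0.00072, SE 0.245) for PMA_ethanol versus Control, 0.57 (edgeR adjusted p = 0.0715) for PMA_1002 versus PMA_ethanol and -0.55 (edgeR adjusted p = 0.0364) for PMA_1002 versus Control.

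Cidec, whose protein fuses droplets into larger ones, and Plin4, another perilipin, were not called in any comparison, with log2 fold changes of -0.59 (edgeR adjusted p = 0.0832) and -0.17 (edgeR adjusted p = 0.42) for PMA_ethanol versus Control. The Cidec difference was called in 3 of 26 alternatives for PMA_ethanol versus Control and in 2 of 26 for PMA_1002 versus PMA_ethanol. Cidec averaged 25.9 ± 7.51, 17.7 ± 5.20 and 25.9 ± 8.25 CPM in PMA_1002, PMA_ethanol and Control ears, and Plin4 averaged 198 ± 35.5, 177 ± 42.4 and 199 ± 45.9 CPM. Fabp4, the fatty acid binding protein of fat cells, which macrophages and capillary endothelium also make, was lower in PMA_1002 ears (132 ± 8.62 CPM) than in Control ears (159 ± 26.6 CPM), with a log2 fold change of -0.27 (edgeR adjusted p = 0.0399, SE 0.104). PMA_ethanol ears averaged 138 ± 18.7 CPM, not called against Control. The Fabp4 difference from Control was lost in 11 of its 27 alternatives and the Plin1 difference from Control in 10 of its 26.

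**Figure D3:**
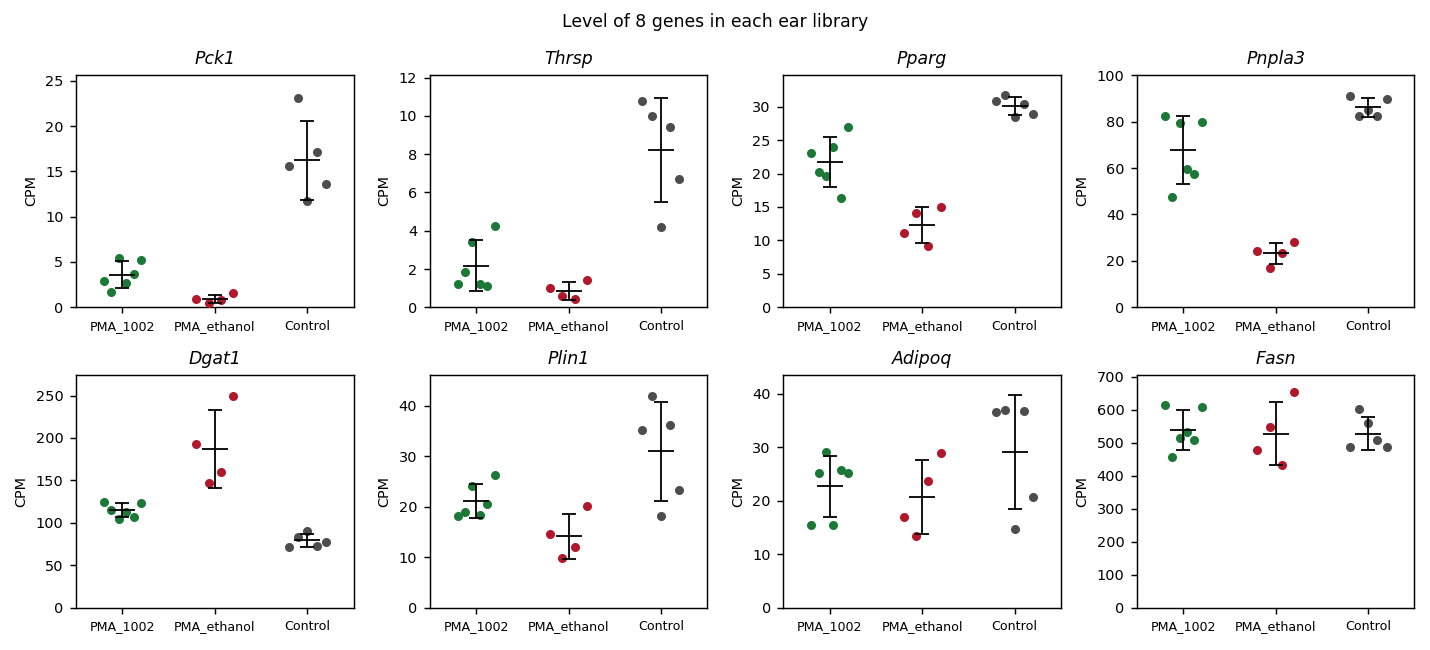
CPM of 8 genes in each library (points) with the mean and SD of each group (bars), for PMA_1002 (n = 6), PMA_ethanol (n = 4) and Control (n = 5). The groups are separate for Pck1, Pparg and Dgat1, with PMA_1002 between the others, while Adipoq and Fasn overlap across all groups.

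Acsl1, Lpl and Aqp7, which serve the activation and uptake of fatty acids and the passage of glycerol, fell with PMA, while the genes of the fat-cell lipases were not called. Acsl1, the acyl-CoA synthetase that activates fatty acids, had 177, 204 and 216 CPM as its lowest, median and highest value in the 6 PMA_1002 libraries, 146, 115, 169 and 157 CPM in PMA_ethanol libraries, and 288, 208, 209, 250 and 243 CPM in Control libraries. All PMA_ethanol libraries lay below all others. The log2 fold change was -0.71 (edgeR adjusted p = 3.11e-05, SE 0.115) for PMA_ethanol versus Control and 0.45 (edgeR adjusted p = 0.00419, SE 0.11) for PMA_1002 versus PMA_ethanol. PMA_1002 ears overlapped with Control ears in Acsl1, and the groups differed by a log2 fold change of -0.26 (edgeR adjusted p = 0.0376), a call lost in 9 of 27 alternatives.

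Lpl, which encodes lipoprotein lipase, had 237, 280 and 362 CPM as its lowest, median and highest value in the 6 PMA_1002 libraries, 219, 237, 177 and 297 CPM in PMA_ethanol libraries, and 367, 323, 325, 392 and 372 CPM in Control libraries. PMA_ethanol and Control did not overlap, and PMA_1002 ears overlapped with each of them. The log2 fold change was -0.61 (edgeR adjusted p = 0.00109, SE 0.142) for PMA_ethanol versus Control and -0.31 (edgeR adjusted p = 0.0459) for PMA_1002 versus Control, and the second was lost in 15 of 27 alternatives. Aqp7, the glycerol channel of fat cells, was rare, with 0.767, 1.01, 1.24 and 0.286 CPM in PMA_ethanol and 1.56, 3.10, 1.76, 2.0 and 1.48 CPM in Control libraries. These did not overlap, and the log2 fold change was -1.27 (edgeR adjusted p = 0.00869, SE 0.395), resting on 2 to 23 reads per PMA_ethanol library. Aqp7 lay near the filter on low counts and passed it through its Control libraries, the group where it was high. Its decreases from Control thus rest partly on that filter. It had a value in 22 of 27 alternatives for this comparison.

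Pnpla2, the gene of adipose triglyceride lipase, averaged 92.7 ± 9.58, 92.8 ± 10.6 and 88.4 ± 14.6 CPM in PMA_1002, PMA_ethanol and Control ears. Lipe, the gene of hormone-sensitive lipase, averaged 42.3 ± 5.59, 44.0 ± 6.02 and 43.5 ± 7.35 CPM, and Cd36, a fatty acid transporter also found on macrophages and capillaries, averaged 170 ± 23.2, 186 ± 28.3 and 188 ± 22.7 CPM. None of these 3 was called in any comparison, and their log2 fold changes for PMA_ethanol versus Control were 0.07, 0.02 and -0.02 (SE 0.116, 0.132 and 0.12). Lipe shares 918 exon bases with an antisense gene, and no source used here states the strand option of the counting, so its count in those bases is uncertain. Acsl1, Adrb3, Agpat2, Elovl6, Gpd1, Me1, Mlxipl and Plin4 likewise share 17 to 1039 exon bases with a gene on the other strand, and their counts carry the same uncertainty. Adrb3 had 0.200, 0.226 and 0.508 CPM as its lowest, median and highest value in the 6 PMA_1002 libraries, 0.548, 0.307, 0 and 0.715 CPM in PMA_ethanol libraries and 1.04, 2.07, 1.85, 1.54 and 0.984 CPM in Control libraries. All Control values lay above all others. The 0 in PMA_ethanol library 3 allows up to 3 reads, or 1.24 CPM. Adrb3 did not pass the filter on low counts, and without that filter its log2 fold change was -1.75 (edgeR adjusted p = 0.00217) for PMA_ethanol versus Control and -2.29 (edgeR adjusted p = 7.14e-05) for PMA_1002 versus Control.

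Pck1 (ENSMUSG00000027513, chromosome 2 from 173153048 to 173159273) changed the most of the 32 tested members in each of the 3 comparisons. It encodes the cytosolic phosphoenolpyruvate carboxykinase, which fat cells use to make glycerol 3-phosphate for triglyceride. Pck1 had 1.72, 3.31 and 5.39 CPM as its lowest, median and highest value in the 6 PMA_1002 libraries, 0.877, 0.526, 0.830 and 1.57 CPM in PMA_ethanol libraries, and 15.6, 23.1, 11.7, 17.1 and 13.6 CPM in Control libraries. The 3 groups did not overlap, with PMA_1002 ears between the others. Pck1 fell by 94.5% in PMA_ethanol ears against Control, a log2 fold change of -4.18 (edgeR adjusted p = 4.29e-08, SE 0.38), and the PMA_ethanol libraries held 2 to 12 Pck1 reads each. It was 3.98-fold higher in PMA_1002 than in PMA_ethanol ears, a log2 fold change of 1.99 (edgeR adjusted p = 0.000657, SE 0.381), and it was lower in PMA_1002 than in Control ears, with a log2 fold change of -2.19 (edgeR adjusted p = 4.36e-06, SE 0.272).

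Gpd1, which makes glycerol 3-phosphate from a glycolytic intermediate, fell in PMA_ethanol ears with a log2 fold change of -0.69 (edgeR adjusted p = 0.0088, SE 0.214), with 20.2, 15.5, 17.8 and 29.5 CPM in PMA_ethanol and 40.1, 36.5, 21.5, 41.8 and 28.7 CPM in Control libraries. These ranges overlapped. With the mean log2 CPM of Adipoq, Plin1, Cidec and Lep as a covariate, an alternative chosen after the values were seen, the log2 fold change of Gpd1 was -0.26 (edgeR adjusted p = 0.135), no longer called, while that of Pck1 was -3.66 (edgeR adjusted p = 3.42e-08). Thrsp moved from -3.22 to -2.41 and Mlxipl from -1.14 to -0.45, both still called, while Pparg stayed at -1.25. Plin1, a part of this covariate, was itself called lower with PMA, so the fit cannot separate fat-cell amount from treatment. Slc2a4, the insulin-responsive glucose transporter, and Car3, a carbonic anhydrase abundant in fat, are also made by muscle, and neither was called. In 3 of 27 alternatives, among them the skeletal muscle level as a covariate, Slc2a4 was called lower with PMA. With the muscle covariate it was also called higher in PMA_1002 than in PMA_ethanol ears. With the hair follicle level as a covariate, Car3 was called lower in PMA_ethanol and in PMA_1002 ears than in Control ears. Slc2a4 averaged 30.3 ± 7.87, 22.6 ± 8.83 and 32.5 ± 11.2 CPM and Car3 averaged 281 ± 86.2, 242 ± 95.5 and 334 ± 100 CPM in PMA_1002, PMA_ethanol and Control ears.

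Relative to Adipoq reads in the same library, Pck1 and Thrsp stood apart between Control ears and the others. Pck1 reads were 6.85%, 17.9% and 20.9% of Adipoq reads (lowest, median, highest) in PMA_1002 ears, 3.51%, 4.56% and 5.42% in PMA_ethanol ears, and 42.7%, 62.6% and 79.8% in Control ears. Thrsp reads were 4.40%, 7.95% and 16.9% in PMA_1002, 1.75%, 4.59% and 5.84% in PMA_ethanol, and 25.6%, 28.4% and 32.5% in Control ears. In these ratios the 3 groups of Pck1 do not overlap, and Control ears stand clear of the others for Thrsp. Car3 reads, in contrast, had medians of 1232%, 1096% and 1144% of Adipoq reads in PMA_1002, PMA_ethanol and Control ears, with overlapping ranges. Lep reads had medians of 67.4%, 49.1% and 42.9%, and every PMA_1002 library lay above every Control library. Plin1 reads ran from 75.4% to 119% of Adipoq reads in PMA_1002 and from 50.9% to 85.7% in PMA_ethanol, against 96.2% to 123% in Control ears, so that PMA_ethanol and Control stayed separate. Pparg, whose groups did not overlap in CPM, did overlap in this ratio, at 64.0% to 155%, 38.6% to 105% and 82.8% to 194% in PMA_1002, PMA_ethanol and Control ears. Acacb also overlapped across groups, at 560% to 1062%, 347% to 996% and 607% to 1683%, and so did Cidec, at 92.0% to 139%, 55.7% to 119% and 69.2% to 103%. These ratios are given as a description, with no test, and were chosen after values were seen.

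**Figure D4:**
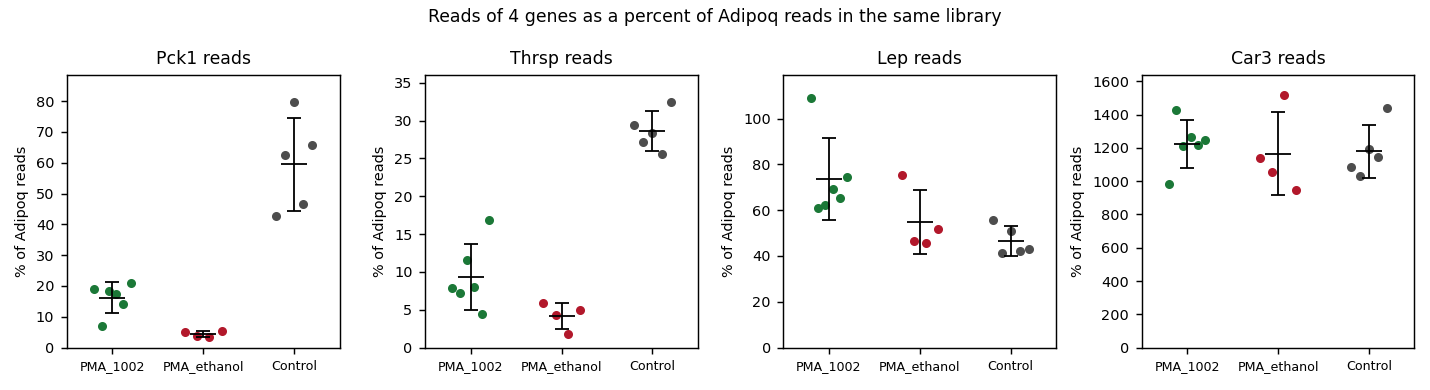
Reads of Pck1, Thrsp, Lep and Car3 as a percent of Adipoq reads in the same library (points), with the mean and SD of each group (bars). Control ears lie highest for Pck1 and Thrsp, PMA_1002 ears lie above Control ears for Lep, and the groups overlap for Car3.

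All 3 regulators fell with PMA. Pparg (ENSMUSG00000000440, chromosome 6 from 115360951 to 115490399), which encodes PPAR gamma, had 16.4, 21.7 and 26.9 CPM as its lowest, median and highest value in the 6 PMA_1002 libraries, 11.1, 14.1, 9.13 and 15 CPM in PMA_ethanol libraries, and 30.9, 31.7, 28.5, 30.4 and 28.9 CPM in Control libraries. No group overlapped with another, and the Control libraries lay within a few CPM of each other. The log2 fold change was -1.25 (edgeR adjusted p = 9.29e-07, SE 0.147) for PMA_ethanol versus Control, 0.77 (edgeR adjusted p = 0.000469, SE 0.142) for PMA_1002 versus PMA_ethanol and -0.48 (edgeR adjusted p = 0.00392, SE 0.125) for PMA_1002 versus Control. Pparg is also made by sebaceous glands and macrophages.

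Thrsp (ENSMUSG00000035686, chromosome 7 from 97412938 to 97417730), whose protein Spot 14 is found where fatty acids are made and stimulates their synthesis, had 1.13, 1.53 and 4.24 CPM as its lowest, median and highest value in the 6 PMA_1002 libraries, 0.987, 0.569, 0.415 and 1.43 CPM in PMA_ethanol libraries, and 10.8, 9.99, 4.17, 9.40 and 6.72 CPM in Control libraries. PMA_ethanol and Control ears did not overlap, and the PMA_1002 range touched each of them. Thrsp fell by 89.3% in PMA_ethanol ears, a log2 fold change of -3.22 (edgeR adjusted p = 1.14e-05, SE 0.468), with 1 to 13 reads per PMA_ethanol library. PMA_1002 ears were lower than Control ears, with a log2 fold change of -1.99 (edgeR adjusted p = 0.000208, SE 0.362). Like Aqp7, Thrsp passed the filter on low counts through its Control libraries, the group where it was high. The decreases of Thrsp from Control thus rest partly on that filter. The log2 fold change of 1.23 (edgeR adjusted p = 0.0557, SE 0.48) between PMA_1002 and PMA_ethanol was not called, but was in 8 of 27 alternatives. Mlxipl, the gene of the glucose-sensing factor ChREBP, fell in PMA_ethanol ears with a log2 fold change of -1.14 (edgeR adjusted p = 0.00403, SE 0.315), with 6.14, 2.67, 3.73 and 6.58 CPM in PMA_ethanol and 13.9, 13.3, 6.42, 12.8 and 6.72 CPM in Control libraries, where the ranges overlap slightly. Its log2 fold changes between PMA_1002 and PMA_ethanol, 0.76 (edgeR adjusted p = 0.0625), and between PMA_1002 and Control, -0.38 (edgeR adjusted p = 0.241), were not called, and the first was in 5 of 27 alternatives.

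Among the enzymes of fatty acid synthesis the fitted decreases with PMA were smaller than those of the regulators, and fatty acid synthase was not called. Fasn had 458, 523 and 614 CPM as its lowest, median and highest value in the 6 PMA_1002 libraries, 477, 547, 433 and 655 CPM in PMA_ethanol libraries, and 486, 602, 559, 507 and 486 CPM in Control libraries. The groups overlapped, and the log2 fold changes were 0.00 (edgeR adjusted p = 0.992, SE 0.117) for PMA_ethanol versus Control, 0.03 (edgeR adjusted p = 0.877) for PMA_1002 versus PMA_ethanol and 0.03 for PMA_1002 versus Control. Acaca, the acetyl-CoA carboxylase of the cytosol, which supplies malonyl-CoA to Fasn, was not called either, at 73.8 ± 6.61, 67.3 ± 11.5 and 74.8 ± 7.48 CPM in PMA_1002, PMA_ethanol and Control ears.

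Acacb, the carboxylase at mitochondria whose malonyl-CoA restrains fatty acid oxidation, had 141, 157 and 249 CPM as its lowest, median and highest value in the 6 PMA_1002 libraries, 89.2, 133, 82.1 and 186 CPM in PMA_ethanol libraries, and 222, 281, 247, 247 and 225 CPM in Control libraries. PMA_ethanol and Control did not overlap, and the log2 fold change was -0.98 (edgeR adjusted p = 0.000943, SE 0.219), the largest decrease among the 7 enzymes. Acacb also differed between PMA_1002 and Control, with a log2 fold change of -0.52 (edgeR adjusted p = 0.0326), a call lost in 9 of 27 alternatives. Acly, which splits citrate to acetyl-CoA, had 300, 341 and 377 CPM as its lowest, median and highest value in the 6 PMA_1002 libraries, 294, 293, 240 and 302 CPM in PMA_ethanol libraries, and 355, 344, 364, 342 and 354 CPM in Control libraries. All PMA_ethanol libraries lay below all Control libraries, and PMA_1002 ears overlapped with both. Acly fell in PMA_ethanol ears against Control, with a log2 fold change of -0.32 (edgeR adjusted p = 0.00221, SE 0.0805) and was higher in PMA_1002 than in PMA_ethanol ears, with a log2 fold change of 0.27 (edgeR adjusted p = 0.0111, SE 0.0776).

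Me1, malic enzyme, which makes NADPH for fatty acid synthesis, had 155, 177 and 192 CPM as its lowest, median and highest value in the 6 PMA_1002 libraries, 158, 148, 121 and 164 CPM in PMA_ethanol libraries, and 192, 179, 185, 203 and 205 CPM in Control libraries. PMA_ethanol and Control were separate, with a log2 fold change of -0.38 (edgeR adjusted p = 0.00119, SE 0.0891). The log2 fold change between PMA_1002 and PMA_ethanol was 0.23 (edgeR adjusted p = 0.0435), and this call was lost in 15 of 27 alternatives. Scd1 had 5586, 6842 and 7826 CPM as its lowest, median and highest value in the 6 PMA_1002 libraries, 6323, 6420, 5077 and 8395 CPM in PMA_ethanol libraries, and 8932, 8824, 8282, 9433 and 8180 CPM in Control libraries. Every PMA_1002 library lay below every Control library, and PMA_ethanol library 4 reached the Control range. Scd1 had a log2 fold change of -0.41 (edgeR adjusted p = 0.00711, SE 0.124) for PMA_ethanol versus Control and -0.37 (edgeR adjusted p = 0.00939, SE 0.111) for PMA_1002 versus Control. Elovl6 was not called in any comparison, with 878 ± 114, 709 ± 187 and 883 ± 117 CPM in PMA_1002, PMA_ethanol and Control ears. Its PMA_ethanol versus Control difference was called in 6 of 27 alternatives.

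Triglyceride genes moved in opposite directions. The enzymes DGAT1 and DGAT2 catalyse the same last step, the joining of a fatty acid to diacylglycerol, and are unrelated in sequence. Dgat1 (ENSMUSG00000022555, chromosome 15 from 76502015 to 76511953) had 105, 114 and 125 CPM as its lowest, median and highest value in the 6 PMA_1002 libraries, 193, 147, 160 and 250 CPM in PMA_ethanol libraries, and 71.6, 82.7, 90.5, 73.1 and 77.9 CPM in Control libraries. The 3 groups did not overlap, and PMA_1002 lay between the others. Dgat1 was 2.37-fold higher in PMA_ethanol than in Control ears, a log2 fold change of 1.24 (edgeR adjusted p = 1.32e-07, SE 0.124). It was lower in PMA_1002 than in PMA_ethanol ears, with a log2 fold change of -0.71 (edgeR adjusted p = 0.000176, SE 0.118), and higher in PMA_1002 than in Control ears, with a log2 fold change of 0.53 (edgeR adjusted p = 0.000813, SE 0.114). Dgat2 had 219, 258 and 281 CPM as its lowest, median and highest value in the 6 PMA_1002 libraries, 214, 228, 240 and 233 CPM in PMA_ethanol libraries, and 298, 290, 314, 277 and 315 CPM in Control libraries. PMA_ethanol and Control ears were separate, with a log2 fold change of -0.39 (edgeR adjusted p = 0.000399, SE 0.0807), and PMA_1002 ears were lower than Control ears, with a log2 fold change of -0.24 (edgeR adjusted p = 0.0104).

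Pnpla3 (ENSMUSG00000041653, chromosome 15 from 84167837 to 84187236), which encodes a lipid droplet protein with lipase and acyltransferase activity, shares 105 exon bases with another transcript on its strand. It had 47.7, 69.5 and 82.2 CPM as its lowest, median and highest value in the 6 PMA_1002 libraries, 24.1, 17.0, 23.6 and 28.2 CPM in PMA_ethanol libraries, and 90.9, 82.2, 85.0, 82.5 and 89.9 CPM in Control libraries. All PMA_ethanol libraries lay far below the rest, and the highest PMA_1002 library stood level with the lowest Control library. Pnpla3 fell by 73.4% in PMA_ethanol ears against Control, a log2 fold change of -1.91 (edgeR adjusted p = 4.17e-08, SE 0.17), and was 2.94-fold higher in PMA_1002 than in PMA_ethanol ears, a log2 fold change of 1.56 (edgeR adjusted p = 2.48e-06, SE 0.164). Its log2 fold change between PMA_1002 and Control was -0.35 (edgeR adjusted p = 0.0423, SE 0.139), a call lost in 14 of 27 alternatives. Agpat2, which adds the middle fatty acid of triglyceride, averaged 29.1 ± 2.33, 29.0 ± 1.82 and 28.7 ± 2.33 CPM in PMA_1002, PMA_ethanol and Control ears and was not called. Its log2 fold change of 0.02 for PMA_ethanol versus Control became -0.22 (edgeR adjusted p = 0.0398) under upper-quartile scaling, which moved the median of all genes in that comparison by -0.235.

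Adipocyte markers and synthesis enzymes were set side by side in each comparison, with no test of the difference between the lists. In PMA_ethanol versus Control 33.3% of the 18 markers and 57.1% of the 7 enzymes fell, against 35.9% of all genes, with median log2 fold changes of -0.52 and -0.32. The share of the markers was thus near that of all genes. For PMA_1002 versus PMA_ethanol 11.1% and 28.6% were called, all of them higher, against 17.0% of all genes, with medians of 0.27 and 0.23, and for PMA_1002 versus Control 44.4% and 28.6% were lower, against 26.7% of all genes, with medians of -0.26 and -0.04. With PMA the markers had the larger median decrease and the smaller share of calls, beside the larger spread within groups given above.

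Partner genes of these pathways were counted against the shares over all genes, which were 32.5% higher and 35.9% lower in PMA_ethanol versus Control, 17.0% and 18.0% in PMA_1002 versus PMA_ethanol, and 28.4% and 26.7% in PMA_1002 versus Control. Of 16 tested adipogenic regulators 5 rose, near the share of all genes, and 10 fell (62.5%, against 35.9%) in PMA_ethanol versus Control. The risers included the early factors Cebpb, with a log2 fold change of 1.80 (edgeR adjusted p = 2.39e-11, SE 0.0901), and Cebpd, with a log2 fold change of 2.75 (edgeR adjusted p = 6.38e-11, SE 0.145), and Pdgfra, a receptor of fibroblasts and fat precursors, with a log2 fold change of 1.26 (edgeR adjusted p = 1.5e-10, SE 0.0725). Between PMA_1002 and PMA_ethanol 5 were higher and 2 lower, among them Rxra, the partner receptor of PPAR gamma, higher with a log2 fold change of 0.92 (edgeR adjusted p = 4.17e-07, SE 0.0833), Ebf2, higher with a log2 fold change of 2.57 (edgeR adjusted p = 5.29e-05, SE 0.375), and Pdgfra, lower with a log2 fold change of -0.77 (edgeR adjusted p = 3.78e-07, SE 0.0687). In PMA_1002 versus Control 4 were higher and 7 lower, and Cebpd, Cebpb and Zfp467 led with log2 fold changes of 2.43 (edgeR adjusted p = 5.25e-10, SE 0.137), 1.24 (edgeR adjusted p = 2.83e-09, SE 0.083) and -1.55 (edgeR adjusted p = 2.34e-06, SE 0.182).

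Of 22 tested partners of lipid droplets and lipolysis 5 rose and 9 fell with PMA (40.9%, near the 35.9% of all genes that fell). Angptl4, which encodes an inhibitor of lipoprotein lipase, rose with a log2 fold change of 5.10 (edgeR adjusted p = 3.26e-12, SE 0.196), and averaged 57.1 ± 8.71, 255 ± 50.8 and 7.32 ± 2.11 CPM in PMA_1002, PMA_ethanol and Control ears. It was lower in PMA_1002 than in PMA_ethanol ears, with a log2 fold change of -2.16 (edgeR adjusted p = 8.9e-08, SE 0.156) and higher in PMA_1002 than in Control ears, with a log2 fold change of 2.94 (edgeR adjusted p = 2.47e-09, SE 0.183). Plin3, a perilipin of many tissues, fell in PMA_ethanol ears with a log2 fold change of -1.72 (edgeR adjusted p = 3.22e-10, SE 0.106). In this list 4 were higher and 4 lower between PMA_1002 and PMA_ethanol, and 3 higher and 6 lower between PMA_1002 and Control.

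Among 10 genes of insulin and adipokine response 2 rose and 6 fell with PMA (60.0%, against 35.9% of all genes). Irs1, an insulin receptor substrate, fell with a log2 fold change of -1.69 (edgeR adjusted p = 4.12e-10, SE 0.106), Pik3r1, a regulatory subunit of the insulin-responsive lipid kinase, fell with a log2 fold change of -1.0 (edgeR adjusted p = 1.07e-06, SE 0.119), and Akt2, a kinase of insulin signalling, rose with a log2 fold change of 0.54 (edgeR adjusted p = 6.56e-07, SE 0.062). Irs1 was higher in PMA_1002 than in PMA_ethanol ears, with a log2 fold change of 0.76 (edgeR adjusted p = 2.35e-05, SE 0.102), where 3 genes were higher and 2 lower, and lower in PMA_1002 than in Control ears, with a log2 fold change of -0.94 (edgeR adjusted p = 2.21e-07, SE 0.0897), where 1 was higher and 4 lower. Of 21 further lipogenesis genes 4 rose and 11 fell with PMA (52.4%, against 35.9% of all genes), 3 were higher and none lower between PMA_1002 and PMA_ethanol, and 4 were higher and 7 lower between PMA_1002 and Control. Idh1, a cytosolic source of NADPH, and Fads1, a fatty acid desaturase, fell in PMA_ethanol ears with log2 fold changes of -1.20 (edgeR adjusted p = 3.17e-07, SE 0.129) and -0.90 (edgeR adjusted p = 6.98e-06, SE 0.125), while Srebf2, the regulator of sterol synthesis, rose with a log2 fold change of 0.56 (edgeR adjusted p = 2e-05, SE 0.0866).

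Of 14 tested glycerolipid synthesis genes 4 rose and 6 fell with PMA (42.9%, near the 35.9% of all genes), 5 were higher and 2 lower between PMA_1002 and PMA_ethanol, and 4 were higher and 4 lower between PMA_1002 and Control. Gpam, the mitochondrial enzyme of the first acylation of glycerol 3-phosphate, fell in PMA_ethanol ears with a log2 fold change of -1.49 (edgeR adjusted p = 9.8e-07, SE 0.17), and Lpin2, a phosphatidate phosphatase, rose with a log2 fold change of 1.47 (edgeR adjusted p = 2.23e-07, SE 0.152). Of 12 tested fatty acid oxidation genes 2 rose and 7 fell with PMA (58.3%, against 35.9% of all genes), 4 were higher and 2 lower between PMA_1002 and PMA_ethanol, and none was higher and 4 were lower between PMA_1002 and Control. Cpt1a, the gate of fatty acid entry into mitochondria, fell in PMA_ethanol ears with a log2 fold change of -1.05 (edgeR adjusted p = 2.72e-07, SE 0.112) and was higher in PMA_1002 than in PMA_ethanol ears, with a log2 fold change of 0.56 (edgeR adjusted p = 0.000649, SE 0.107). Of 5 tested brown fat genes 1 rose and 1 fell with PMA, namely Dio2, with a log2 fold change of 2.20 (edgeR adjusted p = 1.35e-05, SE 0.311), and Prdm16, with a log2 fold change of -0.41 (edgeR adjusted p = 0.0124, SE 0.134). Between PMA_1002 and PMA_ethanol 1 of the 5 was lower, and between PMA_1002 and Control 1 was higher and 1 lower. Ucp1, the defining gene of brown fat, did not pass the filter on low counts.

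Markers of other ear cells were summed in each library. The summed level of 8 keratinocyte markers lay between 24543 and 28436 CPM in PMA_1002, 12514 and 17010 in PMA_ethanol, and 22100 and 28879 in Control libraries. Of these, 6 of 8 fell with PMA (75.0%, against 35.9% of all genes). The summed level of 8 neutrophil markers lay between 354 and 631, 1291 and 2781, and 99.7 and 122 CPM in the same order. With PMA 7 of 7 tested rose, against 32.5% of all genes. The 10 macrophage markers summed to between 640 and 787, 857 and 1144, and 532 and 614 CPM. Of these, 4 of 10 rose and 3 fell with PMA, near the shares of all genes. None of these lists had a member at 0 in every library, and the part of keratinocytes, neutrophils and macrophages in the members' changes was not tested.

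The 12 sebaceous gland markers summed to between 3366 and 4468 CPM in PMA_1002, 2654 and 4211 in PMA_ethanol, and 3941 and 4547 in Control libraries, with 3 of 12 risen and 4 fallen with PMA, near the shares of all genes (32.5% and 35.9%). With their mean log2 CPM as a covariate, also chosen after the values were seen, the PMA_ethanol versus Control log2 fold change was -3.89 (edgeR adjusted p = 1.5e-06) for Pck1, -1.05 (edgeR adjusted p = 3.59e-05) for Pparg and -1.82 (edgeR adjusted p = 3.54e-06) for Pnpla3. That of Scd1 was -0.21 (edgeR adjusted p = 0.165), no longer called, and that of Acacb was -0.51 (edgeR adjusted p = 0.00637). This covariate was itself nearly separate between the groups compared: its highest PMA_ethanol value was 7.18, and its lowest Control value was 7.17. Whether a call was kept or lost in this fit thus cannot separate gland content from treatment. The 10 skeletal muscle markers summed to between 1848 and 3892, 1018 and 4943, and 1605 and 5047 CPM in PMA_1002, PMA_ethanol and Control libraries, and 0 of 10 were called in any comparison by edgeR. The 18 measured hair follicle markers varied from 50.1 to 1314, from 33.6 to 4023 and from 125 to 3977 CPM within the groups. Fibroblast markers (8) summed to between 13023 and 25523, 9962 and 26337, and 22734 and 32918 CPM, endothelial markers (8) to between 203 and 228, 246 and 283, and 208 and 254 CPM, and cartilage markers (8) to between 760 and 947, 730 and 1012, and 864 and 1189 CPM, in the same order of groups.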

How the data were processed

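PolyA RNA of 15 ear libraries was sequenced with a kit that keeps strand, per the labels' protocols. Each library's deposited table holds unnormalized counts of reads for 48795 genes, and the submitters' processing notes name FastQC 0.11.5, MultiQC 0.8, STAR 2.5, HTSeq and the GRCm38 build. Neither the strand option nor the annotation release is given in the sources used here. Reads in no gene (28.5% to 32.85% of a table) and reads with several positions (15.98% to 20.12%) stayed out of library sizes and tests. Symbols, positions and exon lengths came from GENCODE M21 (48435 IDs matched, the rest holding 0.0602% of reads in genes), and promoter sequences from RefSeq on GRCm38.p6.

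The edgeR package (4.0.16, in R 4.3.3) was used over all 15 libraries: TMM scaling, filterByExpr by group, a robust quasi-likelihood fit with group as the only term, and Benjamini-Hochberg adjustment over 14991 genes. The common biological coefficient of variation was 0.185. Standard errors were derived from the F statistic. A prior count of 2 went into log2 CPM, and RPKM is CPM per kilobase of summed exon length. Groups came from sample titles. All 33 members are named, and of each partner list up to 3 called genes with the smallest adjusted p per comparison. A gene that this rule names is not reported here. The members, lists and tests were chosen with earlier results of these data known. Libraries of a group differed beyond sampling noise (chi-square per degree of freedom of 2.927 to 27.02 over 31 pairs), so none was treated as a repeat. The gene test was tested on simulated data. Those counts were drawn independently for each library with the fitted spread, and changes went only into genes above a set Control level. The simulation thus cannot speak for rarer genes or for libraries that share an animal. Alternatives covered scaling, filters, DESeq2 1.42.0, limma 3.58.1 voom, 2-group fits, the replicate number as a block, marker levels as covariates, and each library left out. The hair gene Krt85 was not analysed here under that symbol. The upper limit given for a count of 0 covers counting error only.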

Additional observations from a re-analysis of the deposited data

Results flagged for a closer look

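In 2 of the 99 combinations of a gene and a group a library lay far from the others of its group, and chance alone gives about 1 in 20. Acly had 240 CPM in PMA_ethanol library 3, the library with the fewest reads, while the other PMA_ethanol libraries had 293 to 302 CPM. Acacb had 249 CPM in PMA_1002 library 6, while the other PMA_1002 libraries had 141 to 180 CPM.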

How the results depend on the processing

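Of the called members, 14 of 16 in PMA_ethanol versus Control, 6 of 7 in PMA_1002 versus PMA_ethanol and 5 of 15 in PMA_1002 versus Control kept their call and direction under every alternative that gave a value. The exceptions in the first comparison were Gpd1 (adipocyte and sebaceous levels as covariates) and Scd1 (sebaceous level), and in the second Me1. No called fold change changed sign, and among uncalled ones 141 values over 35 results did, with 21 to 27 alternatives for each. Of the members not called, 10 of 16, 12 of 25 and 8 of 17 were called with their sign unchanged under at least 1 alternative in the 3 comparisons, in the same order. Agpat2 in PMA_ethanol versus Control reversed to -0.22 (edgeR adjusted p = 0.0398) under upper-quartile scaling. Counts of called genes moved as follows, where a gene without a value in a run counts as not called. For PMA_ethanol versus Control, adipocyte markers were 11 under upper-quartile scaling and with the hair follicle covariate, and 5 to 8 with a library left out. For PMA_1002 versus PMA_ethanol, members were 12 under upper-quartile scaling, 14 with the muscle covariate and 6 to 13 with a library left out. Adipocyte markers were 4, 6 and 2 to 4 under the same, and 4 with the adipocyte covariate, in which the 4 genes that form it were left out. The calls added by that covariate were lower in PMA_1002: Cfd at -0.59 (edgeR adjusted p = 0.0339) and Fabp4 at -0.24 (edgeR adjusted p = 0.0401). Synthesis enzymes were 1 under RLE size factors, no filter, DESeq2, voom, the 2-group fit, the replicate block and the adipocyte and sebaceous covariates, and 1 to 4 with a library left out. For PMA_1002 versus Control, members were 7 with no filter, 9 with the sebaceous covariate and 7 to 15 with a library left out. Adipocyte markers were 3, 4 and 1 to 8 under the same, and 4 with the replicate block, and synthesis enzymes were 1, 1 and 1 to 2, and 4 under upper-quartile scaling. The cause was not tested.

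Upper-quartile scaling moved the median of all genes by -0.235, 0.078 and -0.158 in the 3 comparisons, and the share of calls that were higher was 33.6%, 61.8% and 34.6%, against 47.5%, 48.7% and 51.5% with TMM. Replicate numbers did not pair the libraries: over 13 same-numbered pairs the correlation of deviations from group means ran from -0.533 to 0.579, was over 0.1 in 2, and 1 library correlated best with its own number. With the replicate block 5 member calls were lost and none gained. The smallest library, with 2656680 reads, limits the rare genes Pck1, Thrsp, Aqp7 and Adrb3.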
